A study of Mus musculus with 4 samples.

Results

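Interferon-stimulated genes were read in granulocyte/monocyte progenitors (GMP) of Icsbp-deficient mice and compared with the same cells of wild type mice. A list of 49 genes was followed, and its members were all probe sets whose gene symbol in the platform annotation is one of the 49. Of these genes 46 had 77 probe sets of their own, out of 18193 genes and 45037 probe sets that are not array controls, and 42 genes had 57 probe sets on both array types of the study. Isg15, Ifi44 and Psme2 had none of their own, and 7 probe sets that the annotation assigns to several genes, a member among them, were left out. Herc6, Xaf1, Ddx58 and Ifi203 had probe sets on the larger array type alone.

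GMP are bone marrow cells that give rise to granulocytes and monocytes, and here they were purified by flow cytometry from pooled marrow of mice aged 10 to 16 weeks. Icsbp-deficient mice, which carry a mutation of the gene of the interferon regulatory factor Icsbp (also called Irf8), gave 1 preparation from at least 8 mice for a 430A array and 1 for a 430 2.0 array. Wild type mice gave 1 preparation from at least 10 mice for each of the same array types. The labels name no genotype for the wild type 430A array, which was grouped through the series' design text. They give it a mixed background of C57/Bl6 and S129Ola. The background of the other mice and the part of the gene that the mutant allele lacks are not known from these labels (not given in the sources used here). Genotype and background cannot be told apart. The labels do not say whether the 2 preparations of a genotype came from separate colonies or days. The p-values rest in part on how the 430A and 430 2.0 ratios of Icsbp-deficient over wild type differ. That difference holds array type as well as preparation. Most of the spread behind the p-values is borrowed from other probe sets, and they cover no spread beyond these preparations. Irf8 transcript was read in every array by 2 probe sets, and neither was near 0 in mutant cells. The first had signals of 2778 in Icsbp-deficient and 3054 in wild type GMP on the 430A arrays, and 2732 in Icsbp-deficient and 4887 in wild type GMP on the 430 2.0 arrays, a mean log2 ratio of -0.48 ± 0.16 (limma adjusted p = 0.124). The second had 3268 in Icsbp-deficient and 3070 in wild type GMP on the 430A arrays, and 1889 in Icsbp-deficient and 1846 in wild type GMP on the 430 2.0 arrays. Whether these probe sets lie in the deleted part is not known here, so they do not check the genotype labels, which are followed as given.

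Interferons are secreted proteins that switch on antiviral genes in cells that carry their receptors. Type I interferons signal through Ifnar1 and Ifnar2 to a complex of Stat proteins with Irf9, which binds the interferon-stimulated response element. Interferon gamma signals through Ifngr1 and Ifngr2 to Stat dimers, which bind the gamma activated site. Icsbp itself belongs to the family of factors that bind the response element, often with a partner such as an ETS factor. The comparison of Icsbp-deficient with wild type GMP therefore asks how the levels of genes of this response differ with a mutated factor gene.

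Of 31 interferon-stimulated genes whose level could be tested, 4 passed. Rtp4, Gbp2 and Ifit2 were higher in Icsbp-deficient GMP and Ifitm1 was lower. In 25 of 41 tested probe sets the log2 ratio of Icsbp-deficient over wild type lay within 0.5 of 0 on both array types, against 76.3% of all 13576 tested probe sets. The test was limma's moderated test on both ratios together, with Benjamini-Hochberg adjustment over the 13576 and a threshold of 0.05. Of the 41 probe sets 4 were higher and 1 was lower, 12.2% in all, where 5.13% of all tested probe sets passed, 2.99% as higher and 2.14% as lower. The 5 calls come from 4 genes, and 2 of these probe sets, Rtp4 and one of Gbp2, passed the filter on low signals only through their Icsbp-deficient arrays, so the counts are a description. The median log2 ratio over the 41 was 0.050, against -0.0089 over all tested probe sets. Of the 41, 18 had ratios above 0 on both array types and 11 below 0, where 30% and 32.8% of all tested probe sets did, and 12 had opposite signs, against 36.9%. Rtp4 and both Gbp2 probe sets were at least 2-fold higher on each array type, as were 0.471% of all, and no member was at least 2-fold lower on each, where 0.501% of all were. With 1 probe set per gene, 5 of 31 genes passed as higher and 1 as lower, against 4.12% and 3.29% of all genes.

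The calls depend on comparing the genotypes within each array type. Without array type as a block 0 of the 41 passed with limma, as did 1 of all 13576. With the block 13 of the 41 had an unadjusted p under 0.05, against 18.6% of all. Leaving out any 1 array in that unblocked model left 0 higher calls and at most 1 lower call among the members, Ifitm1 without the wild type 430 2.0 array. Such a fit leaves 1 genotype on 1 array type, so it mixes genotype with array type. An exact permutation test of 2 against 2 arrays cannot go below a p of 0.333.

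**Figure D1:**
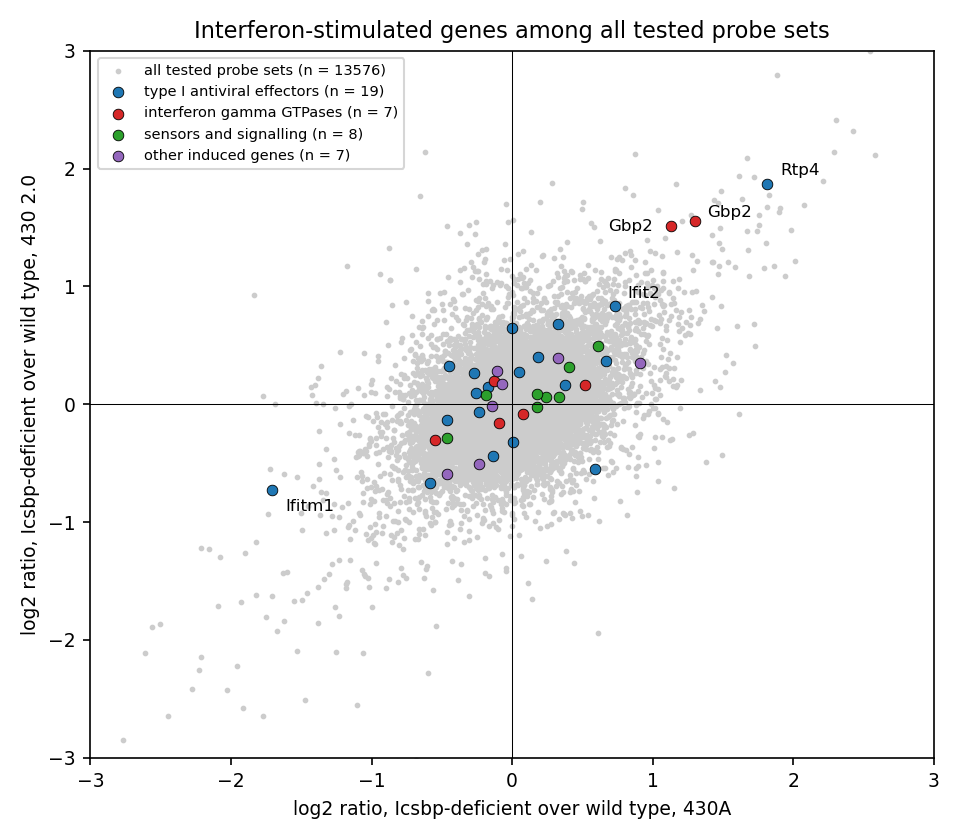
Each point is a probe set, with its log2 ratio of Icsbp-deficient over wild type on the 430A arrays (x axis) and on the 430 2.0 arrays (y axis). Grey points are all 13576 tested probe sets, of which 13 lie beyond 3 on an axis and are not drawn, and coloured points are the 41 tested members by role. Rtp4 and both Gbp2 probe sets lie beyond 1 on both axes, Ifitm1 lies below 0 on both, and most other members lie in the central cloud.

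Signals below are normalized signals, scaled to a trimmed mean of 500 and quantile normalized within an array type. A ratio is taken after adding 50, so it understates the change of a dim probe set. Signals of different probe sets cannot be set against each other. An error given as ± is the moderated standard error of the mean of n = 2 ratios, 1 per array type, and it is borrowed largely from other probe sets.

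The type I antiviral effectors, proteins that block viral entry, replication or translation, were read by 19 tested probe sets of 15 genes. Of these 19, 2 were higher, 1 was lower and 16 did not pass, so 15.8% passed, against 5.13% of all tested probe sets. Their median log2 ratio was 0.00051 on the 430A arrays and 0.16 on the 430 2.0 arrays, and 6 of the 19 had opposite signs on the 2 array types. The mean ratios that did not pass ran between -0.62 and 0.52.

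Rtp4 encodes a receptor transporter protein, which chaperones receptors to the cell surface and is induced by type I interferon. Its signal was 179 in Icsbp-deficient and 15.1 in wild type GMP on the 430A arrays, and 292 in Icsbp-deficient and 43.4 in wild type GMP on the 430 2.0 arrays. Both Icsbp-deficient preparations lay far above their wild type counterparts, and the wild type signals lay below the added 50. The mean log2 ratio was 1.84 ± 0.22, a 3.59-fold rise with a limma adjusted p of 0.00137. With an offset of 16 the ratio was 2.51. Rtp4 passed the filter on low signals only through its Icsbp-deficient arrays. A second Rtp4 probe set lay under that filter, with signals of 15.1 in Icsbp-deficient and 2.0 in wild type GMP on the 430A arrays and 39.8 in Icsbp-deficient and 2.66 in wild type GMP on the 430 2.0 arrays.

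Ifit2 encodes an RNA-binding protein with tetratricopeptide repeats that limits viral translation. Its signal was 432 in Icsbp-deficient and 240.1 in wild type GMP on the 430A arrays, and 712 in Icsbp-deficient and 377 in wild type GMP on the 430 2.0 arrays. It rose 1.72-fold, at a mean log2 ratio of 0.78 ± 0.16 (limma adjusted p = 0.0195), with 0.73 and 0.83 on the 2 array types. The call was lost without the filter on low signals (adjusted p = 0.0741) and without the intensity trend in the variance (adjusted p = 0.0564). Ifit3, the coding gene next to Ifit2, and Ifit1, which lies close by, code for proteins of the same family and were under the filter. Ifit1 had signals of 123 in Icsbp-deficient and 108 in wild type GMP on the 430A arrays and 48.4 in Icsbp-deficient and 21.5 in wild type GMP on the 430 2.0 arrays. Ifit3 had 65.3 in Icsbp-deficient and 84.8 in wild type GMP on the 430A arrays, and 38.9 in Icsbp-deficient and 41.8 in wild type GMP on the 430 2.0 arrays. Neither was tested, and in Ifit3 both ratios lay slightly below 0.

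The interferon-induced transmembrane proteins, which hinder the fusion of viruses with cell membranes, split. Ifitm1 had a signal of 1253 in Icsbp-deficient and 4197 in wild type GMP on the 430A arrays, and 1102 in Icsbp-deficient and 1857 in wild type GMP on the 430 2.0 arrays. It fell 2.32-fold, at a mean log2 ratio of -1.22 ± 0.20 (limma adjusted p = 0.00786). The size differed between array types, with -1.71 on 430A and -0.73 on 430 2.0. The call was lost without the intensity trend (limma adjusted p = 0.0672). In the unblocked model the ratio was -0.64 without the wild type 430A array and -1.80 without the wild type 430 2.0 array. There wild type is left on 1 array type, so these 2 ratios mix genotype with array type.

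Ifitm2, the coding gene on one side of Ifitm1, had signals of 4689 in Icsbp-deficient and 5299 in wild type GMP on the 430A arrays, and 7267 in Icsbp-deficient and 6559 in wild type GMP on the 430 2.0 arrays. Ifitm3, on the other side, had signals of 2736 in Icsbp-deficient and 3272 in wild type GMP on the 430A arrays, and 2398 in Icsbp-deficient and 2247 in wild type GMP on the 430 2.0 arrays. Both were lower on one array type and higher on the other. Their mean log2 ratios of -0.014 ± 0.11 (limma adjusted p = 0.965) and -0.081 ± 0.13 (adjusted p = 0.791) did not pass. The difference between Ifitm1 and its neighbours was not tested.

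Among the other type I effectors none of the oligoadenylate synthetase genes, whose products activate an RNA-degrading enzyme, passed. Oas2 had signals of 198 in Icsbp-deficient and 106 in wild type GMP on the 430A arrays, and 97.1 in Icsbp-deficient and 64.1 in wild type GMP on the 430 2.0 arrays, a mean log2 ratio of 0.52 ± 0.21 (limma adjusted p = 0.23). The related Oasl2 had 105 in Icsbp-deficient and 73.4 in wild type GMP on the 430A arrays, and 166 in Icsbp-deficient and 84.9 in wild type GMP on the 430 2.0 arrays, a mean of 0.50 ± 0.22 (adjusted p = 0.256). Oasl1, the coding gene next to Oasl2, took opposite signs on the 2 array types, with -0.45 and 0.32.

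Samhd1, an enzyme that removes the deoxynucleotides that viruses need, was read by 4 tested probe sets, and these disagreed, with mean log2 ratios from -0.62 to 0.29. The lowest came from a probe set of the type marked x_at, in which some probes can match other transcripts. Its signal was 323 in Icsbp-deficient and 509 in wild type GMP on the 430A arrays, and 187 in Icsbp-deficient and 325 in wild type GMP on the 430 2.0 arrays (limma adjusted p = 0.0583). It passed as lower with an offset of 100, with scaling alone and with the 60th percentile filter, with adjusted p of 0.0467, 0.0419 and 0.0474. Among the 7 member genes read by several tested probe sets, 4 had both signs, namely Samhd1, Dhx58, Eif2ak2 and Trim25, and none of their probe sets passed. The mean ratios ran from -0.29 to 0.020 in Eif2ak2 and from -0.051 to 0.15 in Trim25. Signs of ratios this near 0 say little, and the share of all genes with both signs was not counted.

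**Figure D2:**
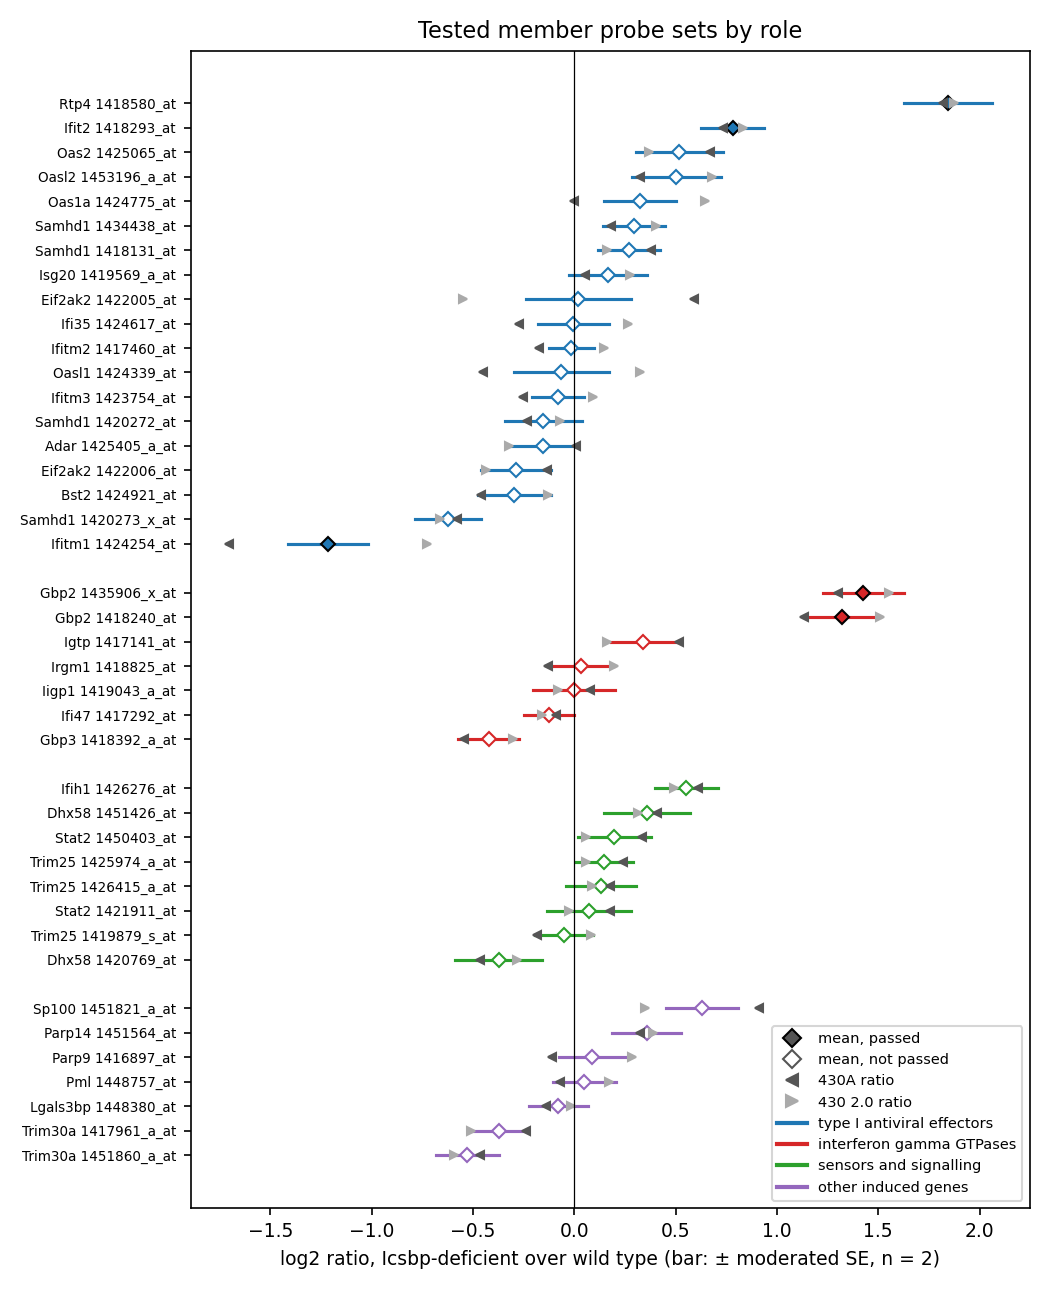
Each row is a tested member probe set, grouped by role and sorted by its mean log2 ratio of Icsbp-deficient over wild type (x axis). Diamonds are means and bars the moderated standard error (n = 2), filled where the test passed, and triangles are the ratios on 430A and 430 2.0. The 5 filled diamonds are Rtp4 at 1.84, Gbp2 at 1.43 and 1.32, Ifit2 at 0.78 and Ifitm1 at -1.22.

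The interferon gamma GTPases, proteins that coat and disrupt the vacuoles of intracellular microbes, were read by 7 tested probe sets of all 6 genes. Of the 6 genes 1 passed, Gbp2, with both of its probe sets. The median log2 ratio of the 7 was 0.033, with 0.080 on the 430A and 0.16 on the 430 2.0 arrays, beside -0.0042 over both for the type I antiviral effectors. By genes, 1 of 6 GTPases and 3 of 15 type I effectors passed, where, with 1 probe set per gene, 4.12% of all genes passed as higher and 3.29% as lower. The difference between the groups was not tested.

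Gbp2 encodes a guanylate-binding protein. Its first probe set had a signal of 343 in Icsbp-deficient and 129.5 in wild type GMP on the 430A arrays, and 338 in Icsbp-deficient and 86.1 in wild type GMP on the 430 2.0 arrays. The second, of the x_at type, had 177 in Icsbp-deficient and 42.2 in wild type GMP on the 430A arrays, and 361 in Icsbp-deficient and 90.2 in wild type GMP on the 430 2.0 arrays. Both probe sets were high on both Icsbp-deficient arrays, by 2.5-fold at a mean log2 ratio of 1.32 ± 0.19 (limma adjusted p = 0.00396) and by 2.69-fold at 1.43 ± 0.20 (adjusted p = 0.00364). The second passed the filter on low signals only through its Icsbp-deficient arrays. With the values as deposited the ratios were 1.00 and 1.05.

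Gbp3, a guanylate-binding protein gene with 1 coding gene between it and Gbp2, lay on the other side of 0. Its signal was 450.4 in Icsbp-deficient and 680.3 in wild type GMP on the 430A arrays, and 703 in Icsbp-deficient and 878 in wild type GMP on the 430 2.0 arrays. The mean log2 ratio of -0.42 ± 0.15 did not pass (limma adjusted p = 0.161), although the ratio was below 0 on both array types.

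The other 4 are immunity-related GTPase genes, and none passed. Igtp had signals of 716 in Icsbp-deficient and 484 in wild type GMP on the 430A arrays, and 459 in Icsbp-deficient and 405 in wild type GMP on the 430 2.0 arrays, a mean log2 ratio of 0.34 ± 0.16 (limma adjusted p = 0.296). Irgm1 had 469 in Icsbp-deficient and 517 in wild type GMP on the 430A arrays, and 408 in Icsbp-deficient and 349.7 in wild type GMP on the 430 2.0 arrays, a mean of 0.033 ± 0.16. Ifi47 had 1633 in Icsbp-deficient and 1744 in wild type GMP on the 430A arrays, and 1944 in Icsbp-deficient and 2179 in wild type GMP on the 430 2.0 arrays, a mean of -0.13 ± 0.12. Of these, Igtp was higher and Ifi47 lower on both array types, and Irgm1 changed sign. Iigp1 had 216 in Icsbp-deficient and 201 in wild type GMP on the 430A arrays, and 67.2 in Icsbp-deficient and 74.1 in wild type GMP on the 430 2.0 arrays, a mean of -0.0014 ± 0.20. A second Iigp1 probe set was under the filter.

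**Figure D3:**
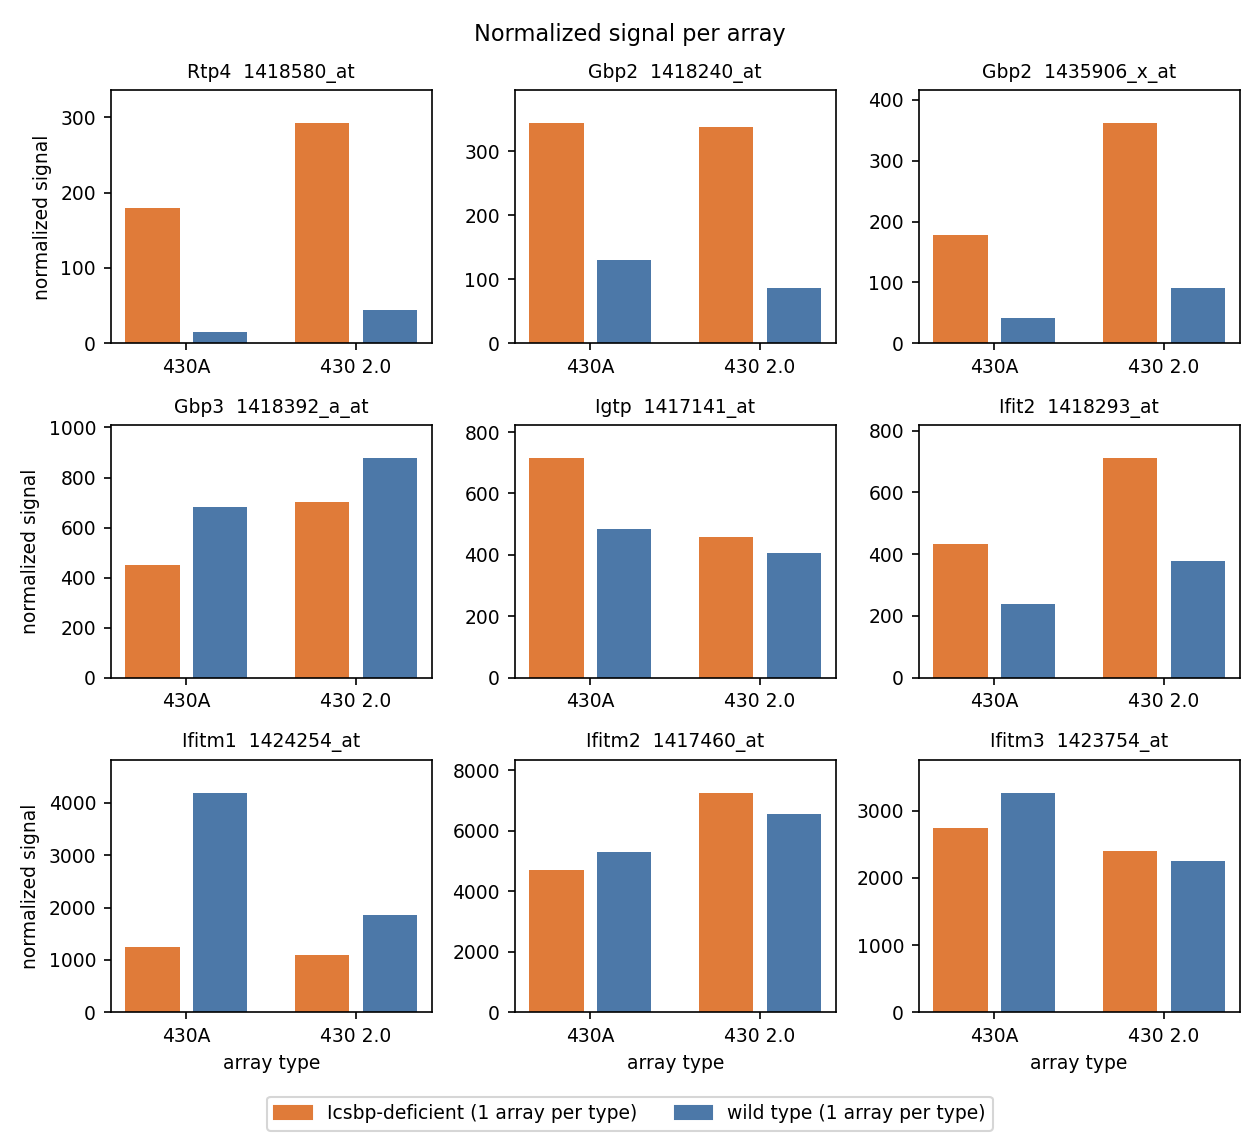
Normalized signal per array (y axis, linear, from 0) for 9 member probe sets, with the Icsbp-deficient bar left of the wild type bar for each array type (x axis). Each bar is 1 array, so there is no error bar, and the panels differ in scale. Rtp4, Gbp2 and Ifit2 were higher and Ifitm1 lower in Icsbp-deficient GMP on both array types, while Ifitm2 and Ifitm3 changed order between the array types.

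Promoters of the genes that passed, other than Rtp4, are shown with those of Gbp3 and Ifitm3, neighbours of Gbp2 and Ifitm1 that were chosen after their values were seen. They are RefSeq windows of GRCm38.p6 from 250 bases before to 50 bases after a gene's start, 5′ to 3′ along the gene. Capitals mark matches on either strand to 3 motifs, which can overlap. These are the core of the interferon-stimulated response element (GAAA, any 2 bases, GAAA), the gamma activated site (TTCNNNGAA) and a composite of an ETS and an IRF site (GGAA, any 2 bases, GAAA).
Gbp2 (chr3:142620413-142620712, plus strand): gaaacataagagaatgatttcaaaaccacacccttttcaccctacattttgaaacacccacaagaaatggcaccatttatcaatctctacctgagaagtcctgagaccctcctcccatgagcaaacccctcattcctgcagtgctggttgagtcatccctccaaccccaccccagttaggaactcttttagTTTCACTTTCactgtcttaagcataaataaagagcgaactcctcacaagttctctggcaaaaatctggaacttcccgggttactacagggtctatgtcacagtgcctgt
Gbp3 (chr3:142559794-142560093, plus strand): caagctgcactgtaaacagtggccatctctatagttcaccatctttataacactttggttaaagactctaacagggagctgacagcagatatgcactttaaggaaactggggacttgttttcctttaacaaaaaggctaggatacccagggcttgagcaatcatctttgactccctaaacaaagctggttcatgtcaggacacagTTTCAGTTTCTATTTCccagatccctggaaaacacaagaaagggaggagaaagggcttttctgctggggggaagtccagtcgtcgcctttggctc
Ifit2 (chr19:34550444-34550743, plus strand): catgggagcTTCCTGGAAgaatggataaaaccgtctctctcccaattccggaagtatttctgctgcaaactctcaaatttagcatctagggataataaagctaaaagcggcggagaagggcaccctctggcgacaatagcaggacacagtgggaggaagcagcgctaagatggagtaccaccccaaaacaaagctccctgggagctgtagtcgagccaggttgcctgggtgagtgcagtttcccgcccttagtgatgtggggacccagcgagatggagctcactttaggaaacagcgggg
Ifitm1 (chr7:140967826-140968125, plus strand): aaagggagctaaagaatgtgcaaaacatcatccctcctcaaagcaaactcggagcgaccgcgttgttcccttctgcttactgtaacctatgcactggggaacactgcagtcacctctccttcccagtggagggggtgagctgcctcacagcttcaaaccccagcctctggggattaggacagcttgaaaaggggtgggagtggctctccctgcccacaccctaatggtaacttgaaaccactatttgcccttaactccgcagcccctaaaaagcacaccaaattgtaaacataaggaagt
Ifitm3 (chr7:141010695-141010994, minus strand): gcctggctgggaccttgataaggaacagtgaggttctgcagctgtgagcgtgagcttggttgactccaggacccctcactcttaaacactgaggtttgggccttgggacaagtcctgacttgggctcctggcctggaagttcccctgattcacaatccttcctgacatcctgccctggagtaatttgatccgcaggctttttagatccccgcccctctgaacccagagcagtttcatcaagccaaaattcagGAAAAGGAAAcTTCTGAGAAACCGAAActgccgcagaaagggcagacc

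The Gbp2 window holds 1 response element core, read on the opposite strand, from base -59 to base -50 before the start. The Gbp3 window holds 2 that overlap, from -45 to -36 and from -39 to -30, and a second Gbp3 window holds none of the motifs. The Ifit2 window holds 1 gamma activated site from -241 to -233 and no response element core, and a second Ifit2 window holds none. The Ifitm1 window holds none of the motifs. The Ifitm3 window holds 2 response element cores, from 3 to 12 and from 20 to 29 after the start, and a gamma activated site from 14 to 22 that overlaps the second. A match is a run of letters and not a shown binding site.

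Over the 48 windows of the 38 members with an entry, 45.8% held the response element core, 20.8% the gamma activated site and 14.6% the composite. Over all 32851 windows these shares were 3.44%, 8.3% and 2.72%. The core stood in 10 of 26 windows of type I antiviral effectors and in 4 of 6 windows of interferon gamma GTPases. The 16 tested probe sets of genes with the core in a window had a median log2 ratio of 0.026, and the 18 of genes with windows that lack it had 0.023. Of the 16, from 12 genes, 2 were higher, both of Gbp2, and 0 lower. Of the 18, from 13 genes, 1 was higher and 1 lower. Over all tested probe sets 2.99% were higher and 2.14% lower. The other 7 tested probe sets, from 6 genes with no entry, had a median of 0.36, with 1 higher, that of Rtp4, and 0 lower. These genes are outside the split by the core, and a link between the core and the ratios was not tested.

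The sensors and signalling members were read by 8 tested probe sets of 4 genes. With limma 0 passed and 1 had an unadjusted p under 0.05, against 5.13% and 18.6% of all tested probe sets. That one was Ifih1, a cytosolic sensor of long double-stranded RNA, with signals of 527 in Icsbp-deficient and 328 in wild type GMP on the 430A arrays, and 513 in Icsbp-deficient and 350.2 in wild type GMP on the 430 2.0 arrays. Its mean log2 ratio of 0.55 ± 0.16 missed the threshold at a limma adjusted p of 0.0781. It passed at 0.0457 with 1 probe set per gene, a fit that covers fewer features and estimates the variance anew. The cause of that change was not tested. Dhx58, a relative of the RNA sensors that lacks their signalling domain, gave 0.36 ± 0.21 and -0.37 ± 0.21 from 2 probe sets. Trim25, a ubiquitin ligase of the RNA sensor pathway, lay between -0.051 and 0.15 over 3 probe sets. Stat2, the partner of Irf9 in type I signalling, was at 0.20 and 0.075.

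Ddx58, the sensor of short RNA with a triphosphate end, was on the 430 2.0 arrays alone. One of its 3 probe sets had a signal of 331 in Icsbp-deficient and 173 in wild type GMP, a log2 ratio of 0.77 with 1 array per genotype and no test. The other 2 had ratios of 0.32 and -0.50 at signals near or below the added 50.

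The remaining induced genes were read by 7 tested probe sets of 6 genes. With limma 0 passed and 3 had an unadjusted p under 0.05, against 5.13% and 18.6% of all tested probe sets. Sp100, a component of nuclear bodies, had signals of 540.2 in Icsbp-deficient and 264 in wild type GMP on the 430A arrays, and 662 in Icsbp-deficient and 509.6 in wild type GMP on the 430 2.0 arrays. Its mean log2 ratio was 0.63 ± 0.18 (limma adjusted p = 0.077). It passed with the 60th percentile filter (adjusted p = 0.0481) and with 1 probe set per gene (adjusted p = 0.0459). A Sp100 probe set of the 430 2.0 arrays alone was at 0.42.

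Trim30a, a tripartite-motif protein that restrains inflammatory signalling, lay below 0 with both of its tested probe sets. The first had signals of 1037 in Icsbp-deficient and 1230.4 in wild type GMP on the 430A arrays, and 908 in Icsbp-deficient and 1312 in wild type GMP on the 430 2.0 arrays, a mean log2 ratio of -0.37 ± 0.14. The second had 464 in Icsbp-deficient and 659 in wild type GMP on the 430A arrays, and 265 in Icsbp-deficient and 425 in wild type GMP on the 430 2.0 arrays, a mean of -0.53 ± 0.15. Both were lower on both array types and neither passed, with limma adjusted p of 0.191 and 0.0912. Parp9, Parp14, Pml and Lgals3bp lay between -0.079 and 0.36.

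The filter on low signals left 16 member probe sets untested, and 11 genes were left with none, among them classic antiviral genes. These were Cxcl10, Ifi204, Ifi27l2a, Ifit1, Ifit3, Mx1, Mx2, Oas3, Rsad2, Socs1 and Usp18. Of the 16, 5 had both ratios above 0, 5 had both below and 6 had opposite signs. Cxcl10, a chemokine that draws activated T cells, had signals of 99.8 in Icsbp-deficient and 4.65 in wild type GMP on the 430A arrays, and 106 in Icsbp-deficient and 47.3 in wild type GMP on the 430 2.0 arrays. Socs1, an inhibitor of interferon receptor signalling, had 54.6 in Icsbp-deficient and 21.8 in wild type GMP on the 430A arrays, and 59.4 in Icsbp-deficient and 23.7 in wild type GMP on the 430 2.0 arrays. Mx1, a dynamin-like antiviral GTPase, went the other way, with 24.6 in Icsbp-deficient and 56.6 in wild type GMP on the 430A arrays, and 22.1 in Icsbp-deficient and 49.0 in wild type GMP on the 430 2.0 arrays. Cxcl10, Socs1 and Mx1 were picked after their values were seen, and signals this low are not told apart from background here. With no filter, 3 of 57 member probe sets passed as higher and 1 as lower, where 0.747% and 0.429% of all 22626 did.

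On the 430 2.0 arrays 20 member probe sets of 11 genes had no counterpart on 430A. On the scale of the signal plus 50, none changed 2-fold or more in either direction, where 0.696% of the 22411 probe sets of that kind were at least 2-fold higher and 0.558% at least 2-fold lower. When these arrays were normalized over all of their own probe sets, 2 of the 20 were at least 2-fold higher, 1 each of Samhd1 (1.16) and Xaf1 (1.09), and 0 lower, against 3.49% and 3.24%. Of the 15 above the filter 8 had ratios above 0 and 7 below, where 52.2% of such probe sets lay above 0. Xaf1, a gene linked to cell death, was at 0.88 and 0.40 in its 2 probe sets, with signals of 119 in Icsbp-deficient and 41.8 in wild type GMP and of 481 in Icsbp-deficient and 353 in wild type GMP. Herc6, the mouse ligase that attaches Isg15 to proteins, ran between -0.33 and 0.18 over 4 probe sets. With 1 array per genotype these values have no replicate check.

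Of the interferon receptors and signalling genes, a list of 22 with 20 on both array types, 3 of 33 tested probe sets passed as higher and 0 as lower, against 2.99% and 2.14% of all tested probe sets. Ifngr1, the ligand-binding chain of the interferon gamma receptor, had signals of 5072 in Icsbp-deficient and 2547 in wild type GMP on the 430A arrays, and 2406 in Icsbp-deficient and 1224 in wild type GMP on the 430 2.0 arrays, a mean log2 ratio of 0.96 ± 0.12 (limma adjusted p = 0.00169). The kinase gene Ikbke, which acts in the induction of interferon, was at 0.78 ± 0.18, and Stat3, a factor of cytokine signalling, at 0.61 ± 0.14 in 1 of its 3 probe sets (both adjusted p = 0.0357). Ifngr2, the partner chain, was at 0.38 and 0.089 and did not pass. The type I receptor chains Ifnar1, at 0.057, and Ifnar2, at -0.0088 and 0.40, did not pass either. Irf9 was at -0.028 ± 0.19, and Irf7, an amplifier of type I interferon production, at 0.010 ± 0.21. The median of the list was 0.057. Of the other interferon-induced GTPases 3 probe sets of Gbp7 and Irgm2 were tested, and none passed, where all 3 ratios lay between -0.11 and 0.45.

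Of the GMP marker list of 7 genes, 1 of 8 tested probe sets was higher, 1 was lower and 6 did not pass. For this and the following lists, the shares over all tested probe sets were 2.99% higher and 2.14% lower. Mpo, Elane, Prtn3 and Ctsg, whose products fill the primary granules, had signals between 13632 and 30024 and mean ratios between -0.020 and 0.046. Cd34, a surface protein of early progenitors, fell by 1.73 on the log2 scale, and Fcgr3, an Fc receptor gene, rose by 1.00 (limma adjusted p of 0.000134 and 0.000776). Marker lists of other cells also differed between the genotypes. In the neutrophil list 4 of 5 tested probe sets were higher, with summed signals of 16275 and 30270 in Icsbp-deficient and 6890 and 14383 in wild type GMP, on 430A and 430 2.0 in turn. In the basophil and mast cell list 3 of 3 were lower, with sums of 815 and 649 in Icsbp-deficient and 2501 and 2572 in wild type GMP. Ccr2, a chemokine receptor gene of monocytes, rose by 1.43 and 1.32 in 2 of its 3 probe sets. Klf4, of the same list, went the other way, with mean log2 ratios of -2.74 and -1.90. Csf1r, also of that list, lay between -0.14 and -0.014 and did not pass. The monocyte list as a whole had 2 higher and 2 lower probe sets of 9, with sums of 10162 and 12057 in Icsbp-deficient and 8047 and 10431 in wild type GMP. In the erythroid list 1 of 2 was lower, with sums of 214 and 54.7 in Icsbp-deficient and 442 and 697 in wild type GMP. The dendritic and B cell lists had 1 tested probe set each, which did not pass, and the T and NK cell list had none above the filter. In the plasmacytoid dendritic cell list, cells known for interferon production, 0 of 5 tested probe sets passed, all of them from Tcf4, and the sums were 1937 and 1672 in Icsbp-deficient and 2005 and 1382 in wild type GMP. The part of these marker changes in the values of Rtp4, Gbp2, Ifit2 and Ifitm1 was not tested. In such bulk samples fewer cells of a type and less RNA per cell cannot be told apart.

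**Figure D4:**
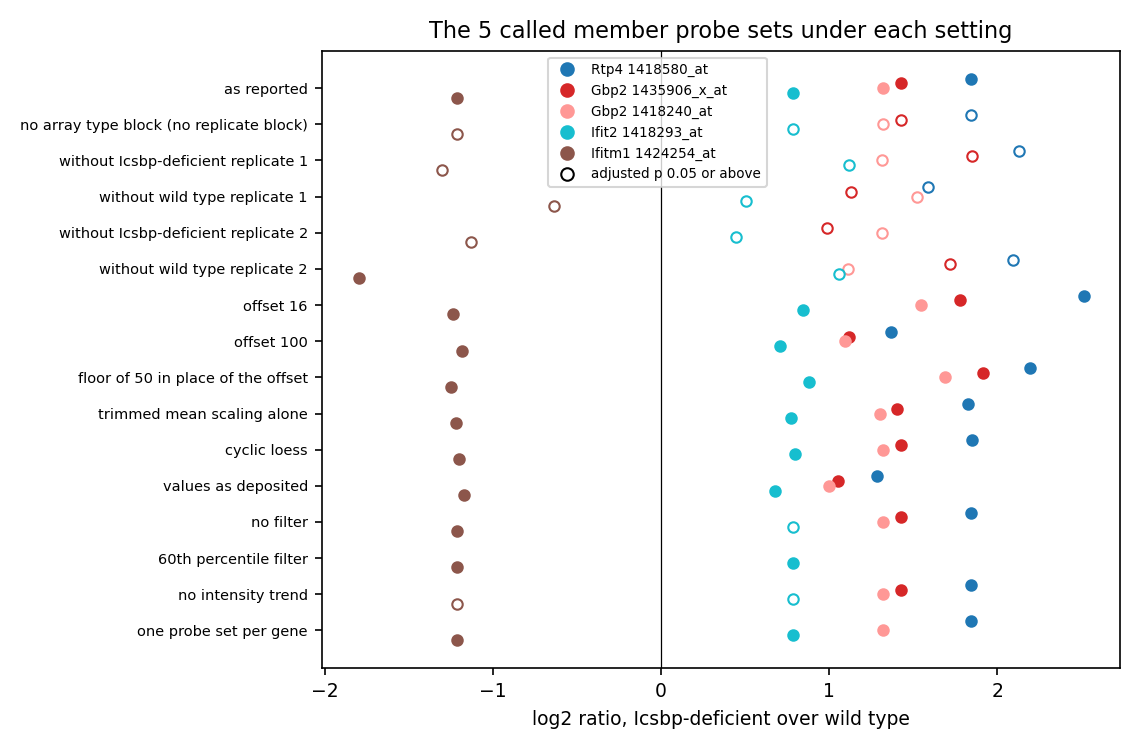
Mean log2 ratio of Icsbp-deficient over wild type (x axis) for the 5 member probe sets that passed, under each setting (rows). Filled points passed at an adjusted p under 0.05, open points did not, and a missing point was not tested in that setting. All points of Rtp4, Gbp2 and Ifit2 lie above 0 and all of Ifitm1 below 0. The 5 points without the array type block are open, as are most points with an array left out, which also lack the block. With the block, Ifit2 is open without the filter and without the intensity trend, and Ifitm1 is open without the trend.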

How the data were processed

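The authors deposited a linear signal intensity per probe set for each array. GCOS is named, without settings, per the submitters' processing notes, for the 430 2.0 arrays. No label names software for the 430A values (not given in the sources used here). Per the labels' protocols, RNA labelling kits differed. They were ENZO for the 430A array of Icsbp-deficient GMP and a one-cycle kit for both 430 2.0 arrays, with none named for the wild type 430A array. The trimmed means of the deposited intensity were 167 (Icsbp-deficient) and 498 (wild type) on 430A, against 159 and 160.4 on 430 2.0, so the arrays were rescaled.

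The 22626 probe sets shared by both types, without 64 controls, were scaled to a 2% trimmed mean of 500 per array. After adding 50, the log2 values of the 2 arrays of a type were quantile normalized together. Probe sets with a mean under the 40th percentile (9050) were not tested, which left 13576. The fit used limma 3.58.1 in R 4.3.3, with array type as a block and an intensity trend, two-sided, with 1 residual and 8.89 prior degrees of freedom. It was tested on simulated data. The number of arrays limits the precision.

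Symbols are those of the platform annotation, and 20380 shared probe sets had 1 symbol. Named in full were each member probe set that passed, all interferon gamma GTPases, and in each role the 3 with the highest mean signal and the 3 with the largest ratio among those that did not pass. Of the pathway genes, those that passed and the receptors, Irf7 and Irf9 were named. The members, roles and lists were chosen with earlier results of these data known. Alternatives changed the block, offset, normalization, filter, variance trend and unit, or left out an array. A further Icsbp-deficient preparation in the design text is not analysed here.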

Additional observations from a re-analysis of the deposited data

How the results depend on the processing

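Array type was the pairing of the arrays, since each type holds 1 array of each genotype. Without this replicate block 0 member probe sets passed as higher and 0 as lower, and of all tested probe sets 0 and 1 did. Leaving out 1 array each time in that unblocked model gave 0 higher (in all 4 cases) and 0 to 1 lower member calls, and 23 to 27 higher and 10 to 33 lower calls over the whole table. Each of these fits leaves 1 genotype on 1 array type, so its ratios mix genotype with array type. There the median log2 ratio ran from -0.057 to 0.29 for the members, from -0.19 to 0.30 for type I effectors and from -0.0072 to 0.58 for the GTPases. Named probe sets that changed sign in these fits, each with no call, ran from -0.29 to 0.031 (Ifi47), -0.59 to 0.58 (Iigp1), -0.23 to 0.29 (Irgm1), -0.26 to 0.10 (Lgals3bp), -1.04 to 0.29 (Dhx58), -0.18 to 0.077 and -0.016 to 0.31 (Trim25), -0.30 to 0.31 (Ifitm2) and -0.35 to 0.18 (Ifitm3).

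With the block kept, Rtp4 and both Gbp2 probe sets passed in every setting that tested them, with ratios from 1.28 to 2.51 for Rtp4 and 1.00 to 1.91 for Gbp2. The 60th percentile filter, which leaves Rtp4 and Gbp2 untested, gave 2 higher and 2 lower calls among 24 member probe sets. Of all 9051 probe sets tested there, 399 were higher and 274 lower. The lower calls were also 2 of 41 with an offset of 100 and with scaling alone, and 0 of 41 without the intensity trend. Of all 13576 probe sets, 343 were lower with that offset and 381 with scaling alone. Of all tested probe sets 242 were higher and 155 lower with the values as deposited, 169 and 97 without the filter, and 147 and 120 without the trend. The GTPase median was 0.18 without the filter, -0.047 with the 60th percentile filter and 0.16 on the 430 2.0 arrays alone, where the type I median was also 0.16. Ratios near 0 changed sign for Iigp1, to 0.0042 with an offset of 100 and 0.012 with the values as deposited, and for Ifitm2, to 0.053 with scaling alone and 0.0081 with cyclic loess. The causes of these changes were not tested. Ratios of probe sets on 430 2.0 alone moved by up to 0.37 when normalized over all probe sets of that type, where 2 of the 20 passed 2-fold in place of 0. Dim signals limit what can be said of 11 untested genes.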
